A study of Homo sapiens with 13 samples.

Results

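The 53 genes described here encode proteins that take cells from the G2 phase through mitosis. They were chosen by symbol from a list of cell division genes, with earlier results of these data known. Of the 53 genes, 52 were measured among 18404 genes on the arrays. Each was read by the transcript cluster (the set of probes that covers 1 transcript) with the highest mean signal. The other was CENPA, whose transcript cluster is annotated to a second gene as well and was not used. All samples were SW480 cells, an established human colorectal adenocarcinoma line, plated overnight in 6-well plates and lysed after 6 h with an agent. The agents were DFO (deferoxamine) at 100 mM (n = 4), Deferasirox at 50 mM (n = 3), OICR623 at 10 mM (n = 2) and the solvent DMSO at 0.1 percent (n = 4), with doses in the unit the labels give, which could not be checked and may stand for a smaller one. DFO and Deferasirox are iron-binding drugs given to patients with iron overload, whereas OICR623 carries only a code name. No 2 compounds were given at the same dose. The labels call the replicates biological, and the series text places them in independent experiments.

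Entry into mitosis is driven by the kinase CDK1 bound to cyclins A and B, which is switched on by CDC25 phosphatases and by Polo and Aurora kinases. The spindle checkpoint then holds the anaphase promoting complex, a ubiquitin ligase, until every kinetochore is attached, after which kinesins and midzone proteins separate the chromosomes and divide the cell. Messenger RNAs of most of these genes accumulate late in the cell cycle under the transcription factors FOXM1 and B-MYB, and are kept low earlier in the cycle by the DREAM repressor complex. In bulk RNA, fewer cells in G2 or mitosis cannot be told apart from less RNA per cell.

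Values are log2 signals, so a difference of -1 is a halving. The median signal of all transcript clusters split the 13 arrays into 3 levels, high (DFO 1 and DMSO 1, 7.17 to 7.19), middle (8 arrays, 6.64 to 6.69) and low (DFO 4, Deferasirox 3 and DMSO 4, 6.52 to 6.55). Both OICR623 arrays lay in the middle level. The mitotic genes moved with the level too: their median shift was 0.87 for the high level and -0.27 for the low level, each against the middle one, where that of all genes was 0.58 and -0.15. Differences between groups therefore come from a limma fit to all genes and arrays with the level as a block, and calls are those with a p under 0.05 after Benjamini-Hochberg adjustment across the 18404 genes. Of 8 colon epithelial markers, KRT8 and KRT18 had mean signals of 12.67 and 13.02, while CDH1 (5.52) and CDH17 (4.37) lay below the median of all genes, 7.46. Under DFO and Deferasirox KRT19 rose and CDX2 fell, and the other 6 were called under no compound. The markers of fibroblasts, endothelium and leukocytes had means of 3.27 to 7.77, and 0 of these 14 genes was called under any compound. The mitotic genes had mean signals of 7.90 to 12.45, and all 52 lay above that median.

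Under DFO, 38 of the 52 genes fell and 0 rose, beside 2.72 percent of all genes lower and 1.89 percent higher. Their median difference was -0.33, against 0.002 for all 18404 genes. The largest falls were those of KIF18A and BORA, to 0.542 and 0.544 of the DMSO signal. Under Deferasirox 35 fell and 1, UBE2C, rose, beside 3 percent of all genes lower and 2.83 percent higher, with a median of -0.27. Under OICR623 the calls were 2 lower, BORA and BUB1B, and 0 higher, beside 0.397 and 0.337 percent of all genes, with a median of -0.14. At an unadjusted p under 0.05, limma had 21 of the genes lower and 1 higher under OICR623. The share of all genes at that threshold was not counted. The 3 comparisons share the DMSO arrays, and 33 of the 52 genes were called lower under both DFO and Deferasirox. How many of all genes were called lower under both was not counted.

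The mean signal of the 52 genes on each array shows the differences before any fit. At the high level it was 10.71 in DFO 1, against 11.06 in DMSO 1. At the middle level it was 9.91 and 9.76 in the DFO arrays, 9.96 and 9.90 in the Deferasirox arrays and 10.11 and 10.03 in the OICR623 arrays, against 10.20 and 10.19 in the DMSO arrays. At the low level it was 9.56 in DFO 4 and 9.60 in Deferasirox 3, against 9.99 in DMSO 4. Each treated array thus lay below every DMSO array of its own level. Gene by gene, the DFO mean was below the DMSO mean in every level for 49 of 52 genes, which held for 17.7 percent of all genes. The same was true of 48 of 52 genes under Deferasirox (30.4 percent of all genes) and, in the 1 level they share, of 46 of 52 under OICR623 (47.9 percent of all genes). Genes with equal values in DFO 1 and DMSO 1 could not enter the DFO counts. Such ties were those of SPC25 among the 52 genes, and of CHEK2 and ATM outside them. They can lower the 17.7 percent, and their number over all genes was not counted.

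**Figure D1:**
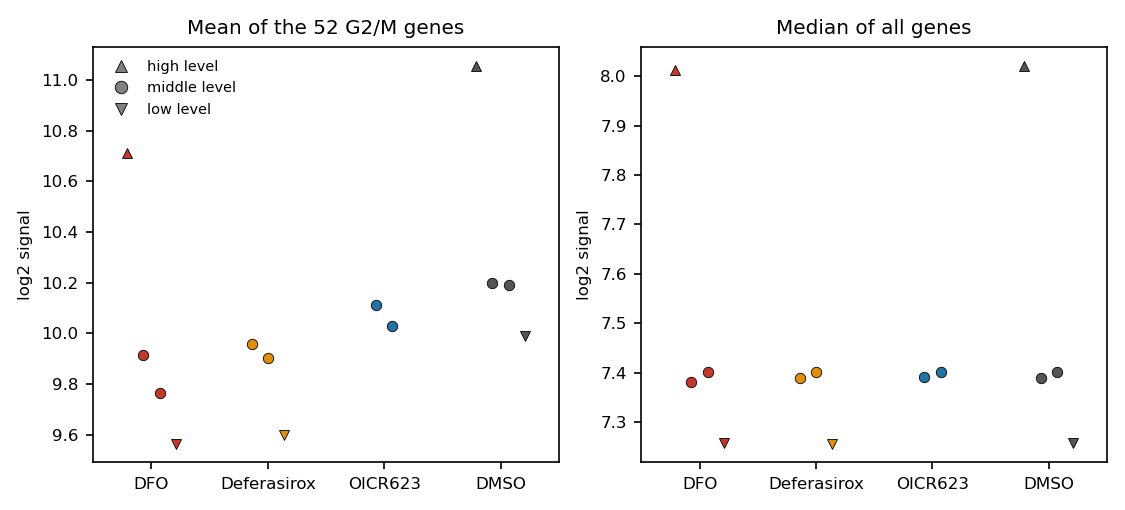
Mean log2 signal of the 52 G2/M genes (left) and median log2 signal of all genes (right) on each array, by group on the x axis. Each point is 1 array and its shape gives the level; within the middle level the means were 9.91 and 9.76 under DFO, 9.96 and 9.90 under Deferasirox, 10.11 and 10.03 under OICR623 and 10.20 and 10.19 under DMSO, while the median of all genes hardly differed between groups of 1 level.

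These calls rest on taking the level into account. Without any block 0 of the 52 genes was called under DFO, Deferasirox or OICR623, beside 0.136, 0.136 and 0 percent of all genes called lower. The replicate number in place of the level gave 0, 9 and 0 lower calls under DFO, Deferasirox and OICR623, and number and level together gave 41, 17 and 0. Without the low level the lower calls were 24, 12 and 0. In the 27 alternative fits, all 38 genes called under DFO and all 36 called under Deferasirox kept their sign. Under DFO this was partly fixed in advance. DFO and DMSO have the same replicate numbers and levels. Dropping the block or using the number, alone or with the level, therefore leaves their difference unchanged. The same holds for fitting these groups alone and for leaving out any Deferasirox or OICR623 array. Trend and robust moderation and the filter on dim genes leave the differences under every compound unchanged. Leaving out 1 array at a time, 30 of the 38 and 21 of the 36 were called every time. The fits without DFO 1 and without DMSO 1 are the same as that without the high level, so this fit counts more than once. The Deferasirox count of 35 became 22 when DMSO 4 was left out, 23 when Deferasirox 2 was left out and 20 when Deferasirox 3 was left out.

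**Figure D2:**
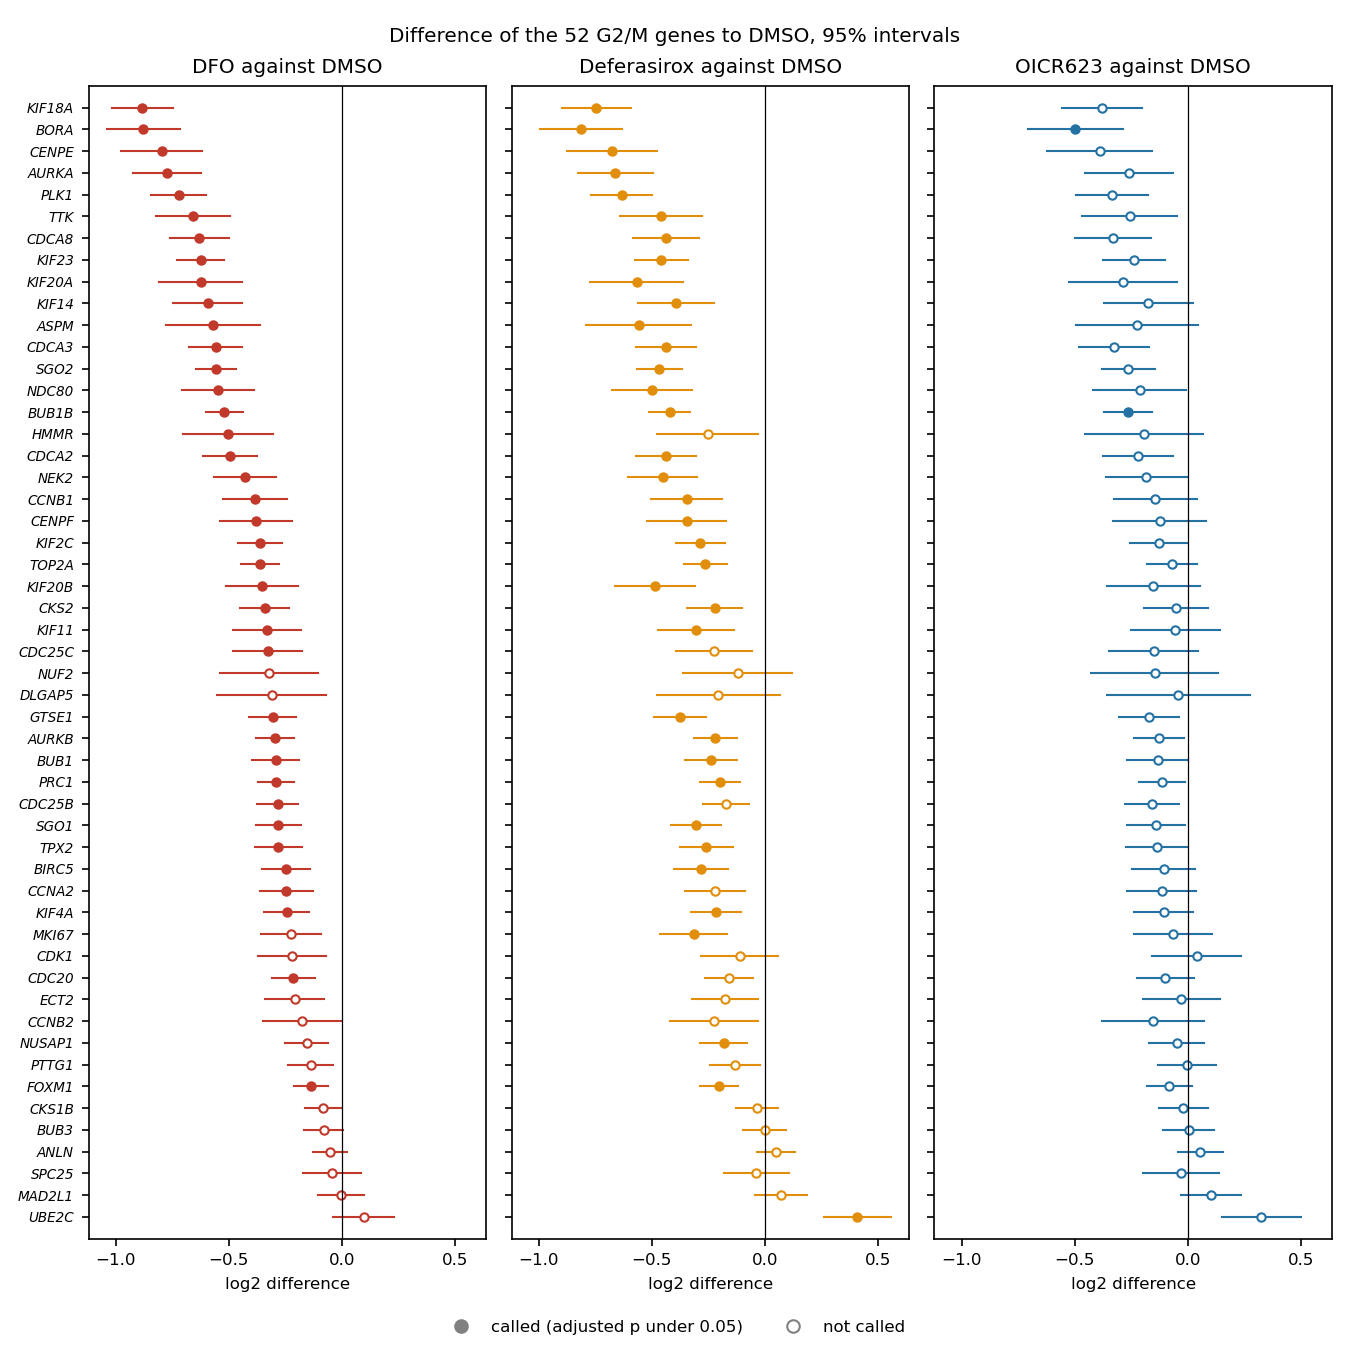
Log2 difference to DMSO of each of the 52 genes (x axis) under DFO, Deferasirox and OICR623, fitted with levels as blocks, ordered by the DFO difference. Bars are 95% intervals and filled points are called genes; 38 points are filled under DFO and 36 under Deferasirox, and UBE2C at the foot is the 1 gene called higher.

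**Figure D3:**
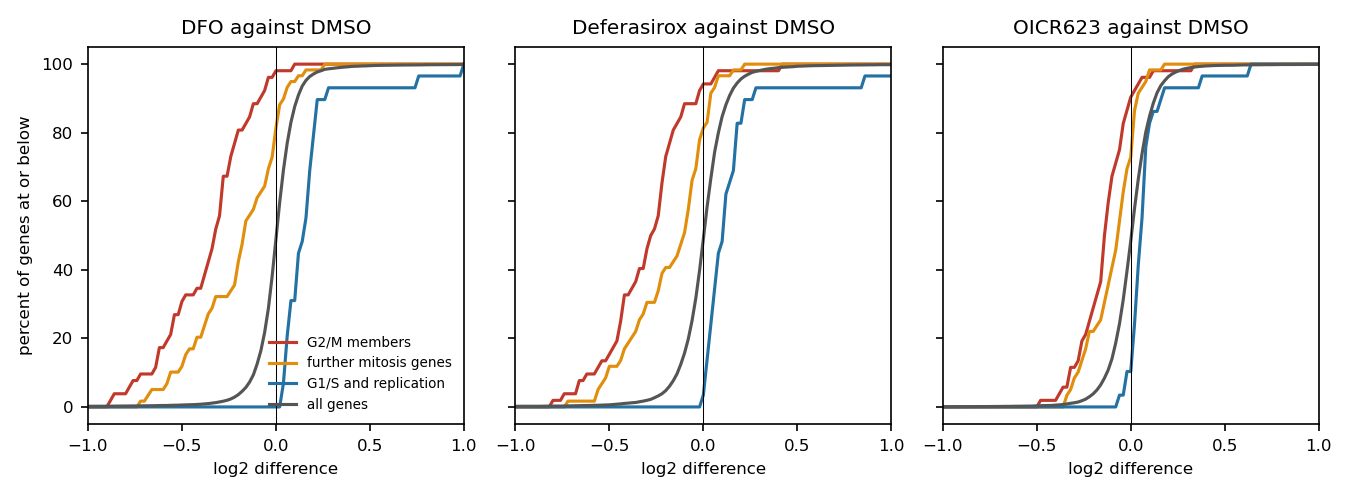
Percent of genes (y axis) with a log2 difference to DMSO at or below the value on the x axis, for the 52 G2/M genes, 59 further mitosis genes, 29 G1/S and replication genes and all genes. The G2/M line lies left of that of all genes, with medians of -0.33, -0.27 and -0.14 under DFO, Deferasirox and OICR623, and the G1/S line lies to the right, with medians of 0.15, 0.10 and 0.05.

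Promoters of late cell cycle genes often carry the cell cycle genes homology region (CHR), bound by DREAM and B-MYB complexes, and CCAAT boxes, bound by NF-Y. RefSeq promoter windows (assembly GRCh38.p14, 250 bases before to 50 after the start) were at hand for 44 of the 52 genes. The CHR was searched as TTTGAA and the CCAAT box as CCAAT, each on both strands. A CHR match was found for 72.7 percent of these 44 genes, against 15.7 percent of the 14230 measured genes with a window. A CCAAT match was found for 86.4 percent, against 42.2 percent, and both together for 63.6 percent, against 6.49 percent. Among the mitotic genes a CHR match was held by 21 of the 32 that fell under DFO, and by 11 of the 12 that were not called. Of 24 G1/S and replication genes with a window, 2 had a CHR match.

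The windows below are the 180 bases before the start of the 5 genes with the largest falls under DFO for which a window was at hand, followed by 3 genes that were called under no compound and were chosen, after the matches were seen, for their motifs, so that the set says nothing about motifs and calls. Sequences run 5′ to 3′ on the strand of the gene, and capitals mark CHR and CCAAT matches of either strand.
KIF18A, chr11:28108157-28108336, minus strand: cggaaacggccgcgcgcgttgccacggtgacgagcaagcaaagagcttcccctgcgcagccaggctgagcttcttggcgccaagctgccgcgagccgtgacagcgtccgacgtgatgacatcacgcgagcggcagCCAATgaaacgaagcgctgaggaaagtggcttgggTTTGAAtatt
BORA, chr13:72727743-72727922, plus strand: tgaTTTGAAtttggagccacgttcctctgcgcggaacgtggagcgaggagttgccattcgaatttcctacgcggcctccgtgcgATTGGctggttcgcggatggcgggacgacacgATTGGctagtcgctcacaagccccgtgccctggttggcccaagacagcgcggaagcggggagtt
CENPE, chr4:103198344-103198523, minus strand: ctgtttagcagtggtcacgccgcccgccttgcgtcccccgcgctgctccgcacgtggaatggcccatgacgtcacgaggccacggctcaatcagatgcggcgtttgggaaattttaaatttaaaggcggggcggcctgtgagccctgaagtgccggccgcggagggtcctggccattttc
PLK1, chr16:23678709-23678888, plus strand: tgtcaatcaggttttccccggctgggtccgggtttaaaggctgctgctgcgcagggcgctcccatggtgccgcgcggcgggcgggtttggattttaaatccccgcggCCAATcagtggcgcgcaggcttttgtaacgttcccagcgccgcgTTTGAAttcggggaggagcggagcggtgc
CDCA8, chr1:37692336-37692515, plus strand: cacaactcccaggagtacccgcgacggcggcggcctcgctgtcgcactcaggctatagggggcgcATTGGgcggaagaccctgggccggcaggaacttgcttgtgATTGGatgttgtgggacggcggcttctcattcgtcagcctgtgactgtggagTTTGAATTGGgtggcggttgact
CCNB2, chr15:59104966-59105145, plus strand: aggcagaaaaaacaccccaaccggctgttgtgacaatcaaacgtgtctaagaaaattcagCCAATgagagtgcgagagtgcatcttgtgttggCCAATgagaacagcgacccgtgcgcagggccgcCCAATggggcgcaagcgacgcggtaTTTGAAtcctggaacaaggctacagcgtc
CKS1B, chr1:154974501-154974680, plus strand: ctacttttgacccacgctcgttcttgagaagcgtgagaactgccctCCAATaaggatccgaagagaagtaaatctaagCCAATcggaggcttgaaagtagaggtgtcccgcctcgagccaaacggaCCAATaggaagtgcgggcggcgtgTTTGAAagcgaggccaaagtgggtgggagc
DLGAP5, chr14:55191586-55191765, minus strand: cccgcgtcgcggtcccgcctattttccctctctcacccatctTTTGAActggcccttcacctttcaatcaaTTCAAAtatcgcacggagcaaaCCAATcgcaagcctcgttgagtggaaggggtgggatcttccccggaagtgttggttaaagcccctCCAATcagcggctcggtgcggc
The CHR match began 10 bases before the start in KIF18A, 29 in PLK1 and CCNB2 and 30 in CKS1B, each with at least 1 CCAAT box further upstream. DLGAP5 had 2 CHR matches, and both of its CCAAT boxes lay between them and the start. In CDCA8 the CHR match runs into a CCAAT match of the other strand, so that both stand in 1 run of capitals. BORA had its CHR match 177 bases before the start, and CENPE had neither motif in this window.

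For the genes below, the values of DFO and DMSO are given for arrays 1 (high level), 2 and 3 (middle) and 4 (low), those of Deferasirox for arrays 1 and 2 (middle) and 3 (low), and those of OICR623 for its 2 arrays (both middle).

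**Figure D4:**
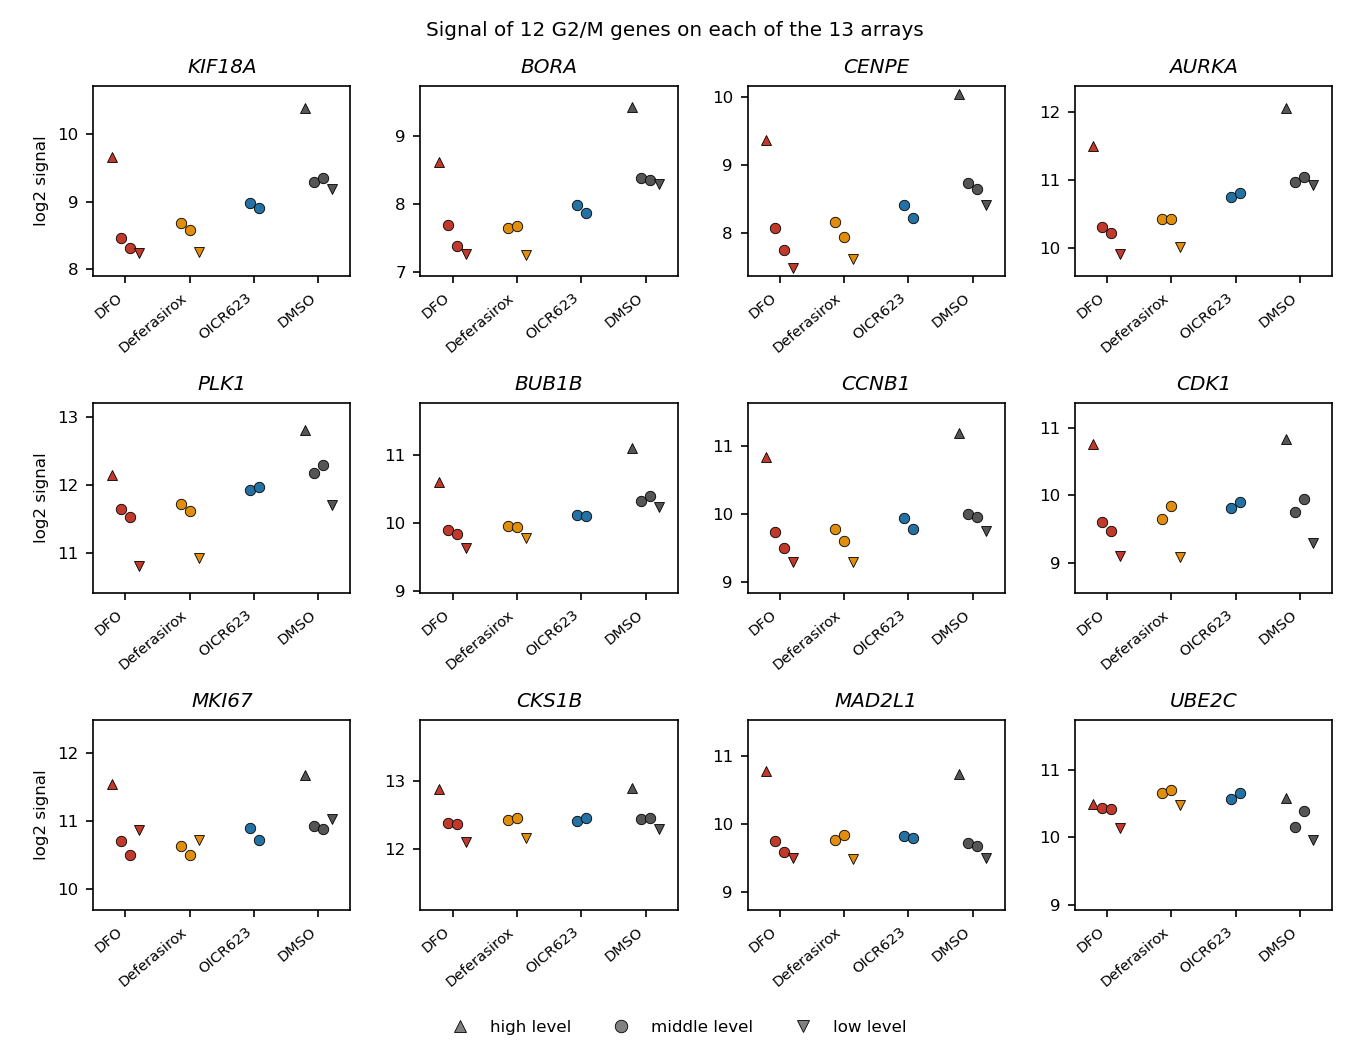
Log2 signal of 12 of the 52 genes on each of the 13 arrays (y axis, the same span in each panel), by group on the x axis; point shapes give the level. For KIF18A, BORA, CENPE, AURKA, PLK1 and BUB1B every treated array lies below the DMSO arrays of its level, while CKS1B and MAD2L1 differ little and UBE2C lies higher in all Deferasirox and OICR623 arrays than in the DMSO arrays of their level.

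Among CDK1 and its direct partners, 5 of 8 genes fell under DFO and 2 of 8 under Deferasirox, and 0 of 8 was called under OICR623. CCNB1, which encodes the mitotic cyclin B1 (transcript cluster 8105828), read 10.84, 9.73, 9.50 and 9.29 in the DFO arrays, 9.77, 9.61 and 9.28 in the Deferasirox arrays and 9.94 and 9.78 in the OICR623 arrays, against 11.18, 10.00, 9.96 and 9.75 in the DMSO arrays. Every treated array lay below the DMSO arrays of its level. It fell by 0.38 (SE 0.06, adjusted p = 0.0053) under DFO and by 0.35 (SE 0.07, adjusted p = 0.016) under Deferasirox, and its difference under OICR623 was -0.14 (SE 0.08, adjusted p = 0.6). CCNB2, the second B-type cyclin gene, read 11.90, 11.44, 11.19 and 10.93 in the DFO arrays, 11.39, 11.21 and 10.82 in the Deferasirox arrays and 11.43 and 11.23 in the OICR623 arrays, against 12.06, 11.54, 11.34 and 11.22 in the DMSO arrays. DFO 2, Deferasirox 1 and OICR623 1 lay among the DMSO arrays of the same level and the other treated arrays below them. Its differences of -0.18 (SE 0.08), -0.22 (SE 0.09) and -0.15 (SE 0.10) under DFO, Deferasirox and OICR623 were not called. CDK1 itself read 10.76, 9.61, 9.48 and 9.11 in the DFO arrays, 9.65, 9.85 and 9.09 in the Deferasirox arrays and 9.82 and 9.91 in the OICR623 arrays, against 10.84, 9.75, 9.94 and 9.30 in the DMSO arrays. Deferasirox 2, OICR623 1 and OICR623 2 lay among the DMSO arrays of the same level and the other treated arrays below them. None of its differences, -0.22 (SE 0.07), -0.11 (SE 0.08) and 0.04 (SE 0.09), was called.

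The 2 genes for the small CDK-binding CKS proteins did not give the same calls. CKS2 read 12.22, 12.40, 12.38 and 11.96 in the DFO arrays, 12.49, 12.48 and 12.12 in the Deferasirox arrays and 12.69 and 12.59 in the OICR623 arrays, against 12.58, 12.61, 12.66 and 12.47 in the DMSO arrays. OICR623 1 lay above the DMSO arrays of the same level and the other treated arrays below them. It fell by 0.34 (SE 0.05, adjusted p = 0.0021) under DFO and by 0.22 (SE 0.05, adjusted p = 0.039) under Deferasirox, a call that 4 of 13 fits without 1 array kept. CKS1B read 12.89, 12.39, 12.37 and 12.11 in the DFO arrays, 12.43, 12.45 and 12.16 in the Deferasirox arrays and 12.42 and 12.46 in the OICR623 arrays, against 12.90, 12.44, 12.46 and 12.29 in the DMSO arrays. OICR623 2 lay above the DMSO arrays of the same level, Deferasirox 2 between or level with them and the other treated arrays below them. Its differences were -0.08 (SE 0.04), -0.04 (SE 0.04) and -0.02 (SE 0.05). Whether the 2 genes differ from each other was not tested. The annotation gives CKS1B 3 transcript clusters, and which of them lies at the gene itself was not checked. The values above are those of the brightest (8112327), and the second brightest (7905826) had differences of -0.06, -0.04 and -0.08. CCNA2, the cyclin A gene, fell under DFO by 0.25 (SE 0.05, adjusted p = 0.024), as did the phosphatase genes CDC25B by 0.28 (SE 0.04, adjusted p = 0.0023) and CDC25C by 0.33 (SE 0.07, adjusted p = 0.019). Under Deferasirox these 3 stood at -0.22, -0.17 and -0.23 and were not called. The DFO calls of CCNA2 and CDC25C were kept by 9 and 7 of the 13 fits without 1 array.

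All 8 genes for the Polo, Aurora and NEK2 kinases and their partners fell under DFO and under Deferasirox. BORA, which encodes the activator that lets Aurora A switch on PLK1 (transcript cluster 7969374), read 8.61, 7.68, 7.38 and 7.26 in the DFO arrays, 7.64, 7.67 and 7.24 in the Deferasirox arrays and 7.97 and 7.86 in the OICR623 arrays, against 9.43, 8.38, 8.35 and 8.29 in the DMSO arrays. At each level the treated arrays were all lower than the DMSO arrays. It fell by 0.88 (SE 0.07, adjusted p = 3.9e-05) under DFO, by 0.81 (SE 0.08, adjusted p = 0.00018) under Deferasirox and by 0.50 (SE 0.09, adjusted p = 0.047) under OICR623. That last call was kept by 2 of the 13 fits without 1 array, with adjusted p of 0.024 to 0.23. PLK1, the Polo-like kinase gene of mitotic entry (transcript cluster 7994109), read 12.15, 11.64, 11.53 and 10.81 in the DFO arrays, 11.73, 11.62 and 10.93 in the Deferasirox arrays and 11.93 and 11.97 in the OICR623 arrays, against 12.82, 12.19, 12.30 and 11.71 in the DMSO arrays. No treated array reached the DMSO arrays of its own level. It fell by 0.72 (SE 0.06, adjusted p = 2.1e-05) under DFO and 0.63 (SE 0.06, adjusted p = 0.00015) under Deferasirox, with -0.34 (SE 0.07, adjusted p = 0.075) under OICR623.

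AURKA, the gene of the spindle pole kinase Aurora A (transcript cluster 8067167), read 11.50, 10.30, 10.22 and 9.90 in the DFO arrays, 10.42, 10.42 and 10.01 in the Deferasirox arrays and 10.75 and 10.81 in the OICR623 arrays, against 12.06, 10.97, 11.05 and 10.93 in the DMSO arrays. All treated arrays were lower than those of DMSO at the same level. The fall was 0.77 (SE 0.07, adjusted p = 5.9e-05) under DFO and 0.66 (SE 0.08, adjusted p = 0.00042) under Deferasirox, and the OICR623 difference was -0.26 (SE 0.09, adjusted p = 0.29). AURKB, the kinase of the chromosomal passenger complex, read 11.34, 10.44, 10.49 and 10.36 in the DFO arrays, 10.51, 10.55 and 10.46 in the Deferasirox arrays and 10.60 and 10.64 in the OICR623 arrays, against 11.64, 10.68, 10.80 and 10.69 in the DMSO arrays. Every treated array lay below the DMSO arrays of its level. Its falls were smaller, 0.29 (SE 0.04, adjusted p = 0.001) under DFO and 0.22 (SE 0.04, adjusted p = 0.012) under Deferasirox. CDCA8, which encodes the passenger subunit borealin, read 10.27, 9.52, 9.46 and 9.28 in the DFO arrays, 9.70, 9.81 and 9.32 in the Deferasirox arrays and 9.72 and 9.88 in the OICR623 arrays, against 10.93, 10.06, 10.11 and 9.94 in the DMSO arrays. At each level the treated arrays were all lower than the DMSO arrays. It fell by 0.63 (SE 0.06, adjusted p = 9.3e-05) under DFO and 0.44 (SE 0.07, adjusted p = 0.0025) under Deferasirox, and stood at -0.33 (SE 0.08, adjusted p = 0.098) under OICR623. The passenger subunit gene BIRC5 (survivin), the Aurora A activator gene TPX2 and the centrosome kinase gene NEK2 fell by 0.25, 0.28 and 0.43 under DFO, and by 0.28, 0.26 and 0.45 under Deferasirox. A second, dimmer transcript cluster of BIRC5 (8018860) had differences of -0.26 and -0.29.

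Genes of the spindle checkpoint and of anaphase were mixed, with 4 of 8 lower under DFO, and 3 lower and 1 higher under Deferasirox. BUB1B, which encodes the checkpoint protein BUBR1 (transcript cluster 7982663), read 10.60, 9.90, 9.85 and 9.63 in the DFO arrays, 9.96, 9.95 and 9.78 in the Deferasirox arrays and 10.12 and 10.11 in the OICR623 arrays, against 11.11, 10.33, 10.40 and 10.23 in the DMSO arrays. No treated array reached the DMSO arrays of its own level. It fell by 0.52 (SE 0.04, adjusted p = 1e-05), 0.42 (SE 0.04, adjusted p = 0.00014) and 0.26 (SE 0.05, adjusted p = 0.036) under DFO, Deferasirox and OICR623. The OICR623 call was kept by 1 of the 13 fits without 1 array, with adjusted p of 0.049 to 0.16. The checkpoint kinase genes TTK and BUB1 fell too, TTK by 0.66 and 0.46 and BUB1 by 0.29 and 0.24 under DFO and Deferasirox.

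BUB3 and MAD2L1, whose products (BUB3 and MAD2) work with BUBR1 to hold back anaphase, were called under no compound. BUB3 read 11.79, 11.00, 10.99 and 10.84 in the DFO arrays, 11.10, 11.14 and 10.87 in the Deferasirox arrays and 11.08 and 11.15 in the OICR623 arrays, against 11.81, 11.17, 11.10 and 10.87 in the DMSO arrays. Deferasirox 3 lay above the DMSO arrays of the same level, Deferasirox 2 and OICR623 2 between or level with them and the other treated arrays below them. The 95% interval of its DFO difference ran from -0.17 to 0.01. MAD2L1 read 10.78, 9.75, 9.59 and 9.51 in the DFO arrays, 9.77, 9.84 and 9.49 in the Deferasirox arrays and 9.82 and 9.79 in the OICR623 arrays, against 10.74, 9.73, 9.68 and 9.50 in the DMSO arrays. DFO 1, DFO 2, DFO 4, Deferasirox 1, Deferasirox 2, OICR623 1 and OICR623 2 lay above the DMSO arrays of the same level and DFO 3 and Deferasirox 3 below them. Its differences were -0.01, 0.07 and 0.10, with 95% intervals of -0.11 to 0.10, -0.04 to 0.19 and -0.03 to 0.24.

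CDC20, an activator of the anaphase promoting complex, read 12.72, 12.43, 12.36 and 12.02 in the DFO arrays, 12.52, 12.36 and 12.08 in the Deferasirox arrays and 12.50 and 12.49 in the OICR623 arrays, against 12.97, 12.53, 12.61 and 12.29 in the DMSO arrays. All treated arrays were lower than those of DMSO at the same level. It fell by 0.21 (SE 0.04, adjusted p = 0.017) under DFO, a call that 7 of 13 fits without 1 array kept, and stood at -0.16 (SE 0.05, adjusted p = 0.096) under Deferasirox. UBE2C, the ubiquitin-conjugating enzyme of the same complex (transcript cluster 8063043), read 10.50, 10.43, 10.42 and 10.13 in the DFO arrays, 10.66, 10.70 and 10.47 in the Deferasirox arrays and 10.57 and 10.66 in the OICR623 arrays, against 10.58, 10.16, 10.40 and 9.96 in the DMSO arrays. DFO 2, DFO 3, DFO 4, Deferasirox 1, Deferasirox 2, Deferasirox 3, OICR623 1 and OICR623 2 lay above the DMSO arrays of the same level and DFO 1 below them. It rose by 0.41 (SE 0.07, adjusted p = 0.0046) under Deferasirox, and its differences under OICR623 and DFO were 0.33 (SE 0.08, adjusted p = 0.12) and 0.10 (SE 0.06, adjusted p = 0.53). The Deferasirox call held in all 13 fits without 1 array, but not without the low level (adjusted p = 0.084) or with number and level together (adjusted p = 0.065). PTTG1, the gene of securin, which anaphase destroys, stood at -0.14, -0.13 and -0.004 under DFO, Deferasirox and OICR623 and was not called.

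At the kinetochore and centromere 5 of 7 genes fell under DFO and the same number under Deferasirox. CENPE, the gene of the kinetochore kinesin that carries chromosomes to the spindle equator (transcript cluster 8102076), read 9.37, 8.07, 7.74 and 7.48 in the DFO arrays, 8.15, 7.94 and 7.61 in the Deferasirox arrays and 8.41 and 8.22 in the OICR623 arrays, against 10.05, 8.73, 8.65 and 8.42 in the DMSO arrays. Every treated array lay below the DMSO arrays of its level. It fell by 0.80 (SE 0.08, adjusted p = 0.00018) under DFO and 0.68 (SE 0.09, adjusted p = 0.0012) under Deferasirox, with -0.39 (SE 0.10, adjusted p = 0.17) under OICR623. CENPF, a large outer kinetochore protein gene, read 10.92, 10.00, 9.75 and 9.54 in the DFO arrays, 10.02, 9.84 and 9.58 in the Deferasirox arrays and 10.27 and 10.03 in the OICR623 arrays, against 11.22, 10.37, 10.23 and 9.92 in the DMSO arrays. OICR623 1 lay among the DMSO arrays of the same level and the other treated arrays below them. Its falls were 0.38 (SE 0.07, adjusted p = 0.011) and 0.35 (SE 0.08, adjusted p = 0.028) under DFO and Deferasirox. The cohesin protectors shugoshin, SGO1 and SGO2, fell by 0.28 and 0.56 under DFO and by 0.30 and 0.47 under Deferasirox.

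The microtubule-binding NDC80 complex showed unequal values among its 3 listed subunits. NDC80 fell by 0.55 (SE 0.07, adjusted p = 0.0011) under DFO and 0.50 (SE 0.08, adjusted p = 0.0038) under Deferasirox. NUF2 stood at -0.32 (SE 0.10, adjusted p = 0.11) under DFO and at -0.12 under Deferasirox. SPC25 read 10.19, 9.14, 8.93 and 8.85 in the DFO arrays, 9.12, 9.16 and 8.68 in the Deferasirox arrays and 9.10 and 9.11 in the OICR623 arrays, against 10.19, 9.20, 9.10 and 8.80 in the DMSO arrays. DFO 4 lay above the DMSO arrays of the same level, DFO 1, DFO 2, Deferasirox 1, Deferasirox 2, OICR623 1 and OICR623 2 between or level with them and DFO 3 and Deferasirox 3 below them. Its differences were -0.04, -0.04 and -0.03, with a 95% interval of -0.17 to 0.09 under DFO.

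All 8 kinesin genes fell under DFO and under Deferasirox, and 0 of 8 was called under OICR623. KIF18A, whose product shortens kinetochore microtubules so that chromosomes line up (transcript cluster 7947248), read 9.66, 8.47, 8.32 and 8.24 in the DFO arrays, 8.68, 8.57 and 8.26 in the Deferasirox arrays and 8.98 and 8.91 in the OICR623 arrays, against 10.37, 9.29, 9.35 and 9.19 in the DMSO arrays. At each level the treated arrays were all lower than the DMSO arrays. It fell by 0.88 (SE 0.06, adjusted p = 9.9e-06) under DFO and 0.75 (SE 0.07, adjusted p = 0.00011) under Deferasirox, and stood at -0.38 (SE 0.08, adjusted p = 0.07) under OICR623. KIF20A, a kinesin of the spindle midzone needed for cytokinesis, read 11.45, 10.59, 10.30 and 9.96 in the DFO arrays, 10.66, 10.40 and 10.03 in the Deferasirox arrays and 10.91 and 10.67 in the OICR623 arrays, against 11.93, 11.08, 11.07 and 10.72 in the DMSO arrays. No treated array reached the DMSO arrays of its own level. Its falls were 0.62 (SE 0.08, adjusted p = 0.0013) under DFO and 0.57 (SE 0.09, adjusted p = 0.0045) under Deferasirox. The midzone kinesin genes KIF23 and KIF14 fell by 0.62 and 0.59 under DFO. Smaller falls were those of KIF2C, a microtubule depolymerase, KIF20B, KIF11, which pushes the spindle poles apart, and KIF4A, at 0.36, 0.35, 0.33 and 0.24 under DFO. Under Deferasirox the 8 falls ran from 0.22 (KIF4A) to 0.75 (KIF18A).

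Of 7 spindle and cytokinesis proteins without a motor, 3 fell under DFO and 3 under Deferasirox. ASPM, a spindle pole protein gene, fell by 0.57 (SE 0.09, adjusted p = 0.0051) and 0.56 (SE 0.11, adjusted p = 0.01) under DFO and Deferasirox, and PRC1, which bundles midzone microtubules, by 0.29 and 0.20. HMMR fell by 0.50 (SE 0.09, adjusted p = 0.0085) under DFO and NUSAP1 by 0.18 (adjusted p = 0.04996, a call kept by 1 of the 13 fits without 1 array) under Deferasirox. ANLN, which encodes the contractile ring protein anillin, read 12.48, 11.76, 11.69 and 11.48 in the DFO arrays, 11.83, 11.82 and 11.56 in the Deferasirox arrays and 11.84 and 11.81 in the OICR623 arrays, against 12.57, 11.73, 11.78 and 11.53 in the DMSO arrays. Deferasirox 1, Deferasirox 2, Deferasirox 3, OICR623 1 and OICR623 2 lay above the DMSO arrays of the same level, DFO 2 between or level with them and DFO 1, DFO 3 and DFO 4 below them. Its differences were -0.05, 0.05 and 0.06. ECT2, the activator of RhoA at the cleavage furrow, and DLGAP5, a spindle assembly factor, stood at -0.21 and -0.31 under DFO and were not called under any compound.

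Among the regulator FOXM1 and 5 further nuclear and chromosome proteins, 5 of 6 fell under DFO and 6 of 6 under Deferasirox. FOXM1 read 11.77, 11.19, 11.16 and 11.01 in the DFO arrays, 11.12, 11.16 and 10.87 in the Deferasirox arrays and 11.24 and 11.25 in the OICR623 arrays, against 11.92, 11.31, 11.34 and 11.11 in the DMSO arrays. All treated arrays were lower than those of DMSO at the same level. Its falls were among the smallest called, 0.14 (SE 0.03, adjusted p = 0.047) under DFO and 0.20 (SE 0.04, adjusted p = 0.01) under Deferasirox, and 0 of the 13 fits without 1 array kept the DFO call. TOP2A, the topoisomerase that untangles sister chromatids, read 11.88, 11.17, 11.14 and 10.81 in the DFO arrays, 11.28, 11.28 and 10.86 in the Deferasirox arrays and 11.47 and 11.43 in the OICR623 arrays, against 12.24, 11.45, 11.54 and 11.22 in the DMSO arrays. OICR623 1 lay among the DMSO arrays of the same level and the other treated arrays below them. It fell by 0.36 (SE 0.04, adjusted p = 0.00025) under DFO and 0.26 (SE 0.04, adjusted p = 0.0046) under Deferasirox. MKI67, the proliferation marker Ki-67 that coats mitotic chromosomes, read 11.54, 10.70, 10.51 and 10.87 in the DFO arrays, 10.64, 10.50 and 10.73 in the Deferasirox arrays and 10.90 and 10.72 in the OICR623 arrays, against 11.68, 10.93, 10.89 and 11.04 in the DMSO arrays. OICR623 1 lay among the DMSO arrays of the same level and the other treated arrays below them. It fell under Deferasirox by 0.31 (SE 0.07, adjusted p = 0.02), called in 8 of the 13 fits without 1 array, and stood at -0.23 (SE 0.06, adjusted p = 0.063) under DFO. CDCA3, CDCA2, a phosphatase 1 partner on chromatin, and GTSE1 fell by 0.56, 0.49 and 0.31 under DFO and by 0.44, 0.44 and 0.38 under Deferasirox.

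Set against each other, the compounds left few differences in these genes that passed the test, and all of these comparisons are between unequal doses. OICR623 lay above DFO for 52 of 52 genes, with a median difference of 0.23, where 49.2 percent of all genes had a negative difference. That direction depended on the level block: the median was -0.22 with the replicate number in its place, and 3 of the 52 genes kept their sign in all 27 alternatives. Of the 52, 2 were called, KIF18A at 0.50 (SE 0.08, adjusted p = 0.043) and KIF23 at 0.39 (SE 0.06, adjusted p = 0.043), beside 0.168 percent of all genes called in either direction. At an unadjusted p under 0.05, limma had 38 of the 52, with no share of all genes counted at this threshold. The KIF18A call was kept by 4 and the KIF23 call by 1 of the 13 fits without 1 array, and with the replicate number in place of the level both changed sign, to -0.034 and -0.15. AURKA had the highest difference, 0.51 (SE 0.09, adjusted p = 0.067), and KIF14 stood at 0.42. At the other end were SPC25 at 0.01, CCNB2 at 0.02 and FOXM1 at 0.06.

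OICR623 lay above Deferasirox for 50 of 52 genes, with a median difference of 0.16, where 49.6 percent of all genes had a negative difference. The limma fit called 0 of the 52, beside 0.0869 percent of all genes. At an unadjusted p under 0.05 it had 27, with no share of all genes counted at this threshold. The highest were AURKA at 0.40 (SE 0.09, adjusted p = 0.18), KIF18A at 0.37 (SE 0.08, adjusted p = 0.17) and ASPM at 0.34 (SE 0.13, adjusted p = 0.48), and the lowest UBE2C, NUF2 and BUB3 at -0.08, -0.03 and 0.005. Deferasirox lay above DFO for 43 of 52 genes, where 48.8 percent of all genes had a negative difference, with a median of 0.07 for the 52. This median was -0.30 with the replicate number in place of the level, -0.17 with no block and -0.025 with centred arrays, and 6 of 52 genes kept their sign in all 27 alternatives. Here too 0 were called, beside 0.0435 percent of all genes, and 11 had an unadjusted p under 0.05, again without a share of all genes. UBE2C had the highest difference between Deferasirox and DFO, 0.31 (SE 0.07, adjusted p = 0.15), with a 95% interval of 0.16 to 0.46, followed by HMMR at 0.25 and NUF2 at 0.20. The lowest were KIF20B, MKI67 and GTSE1 at -0.13, -0.09 and -0.07.

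**Figure D5:**
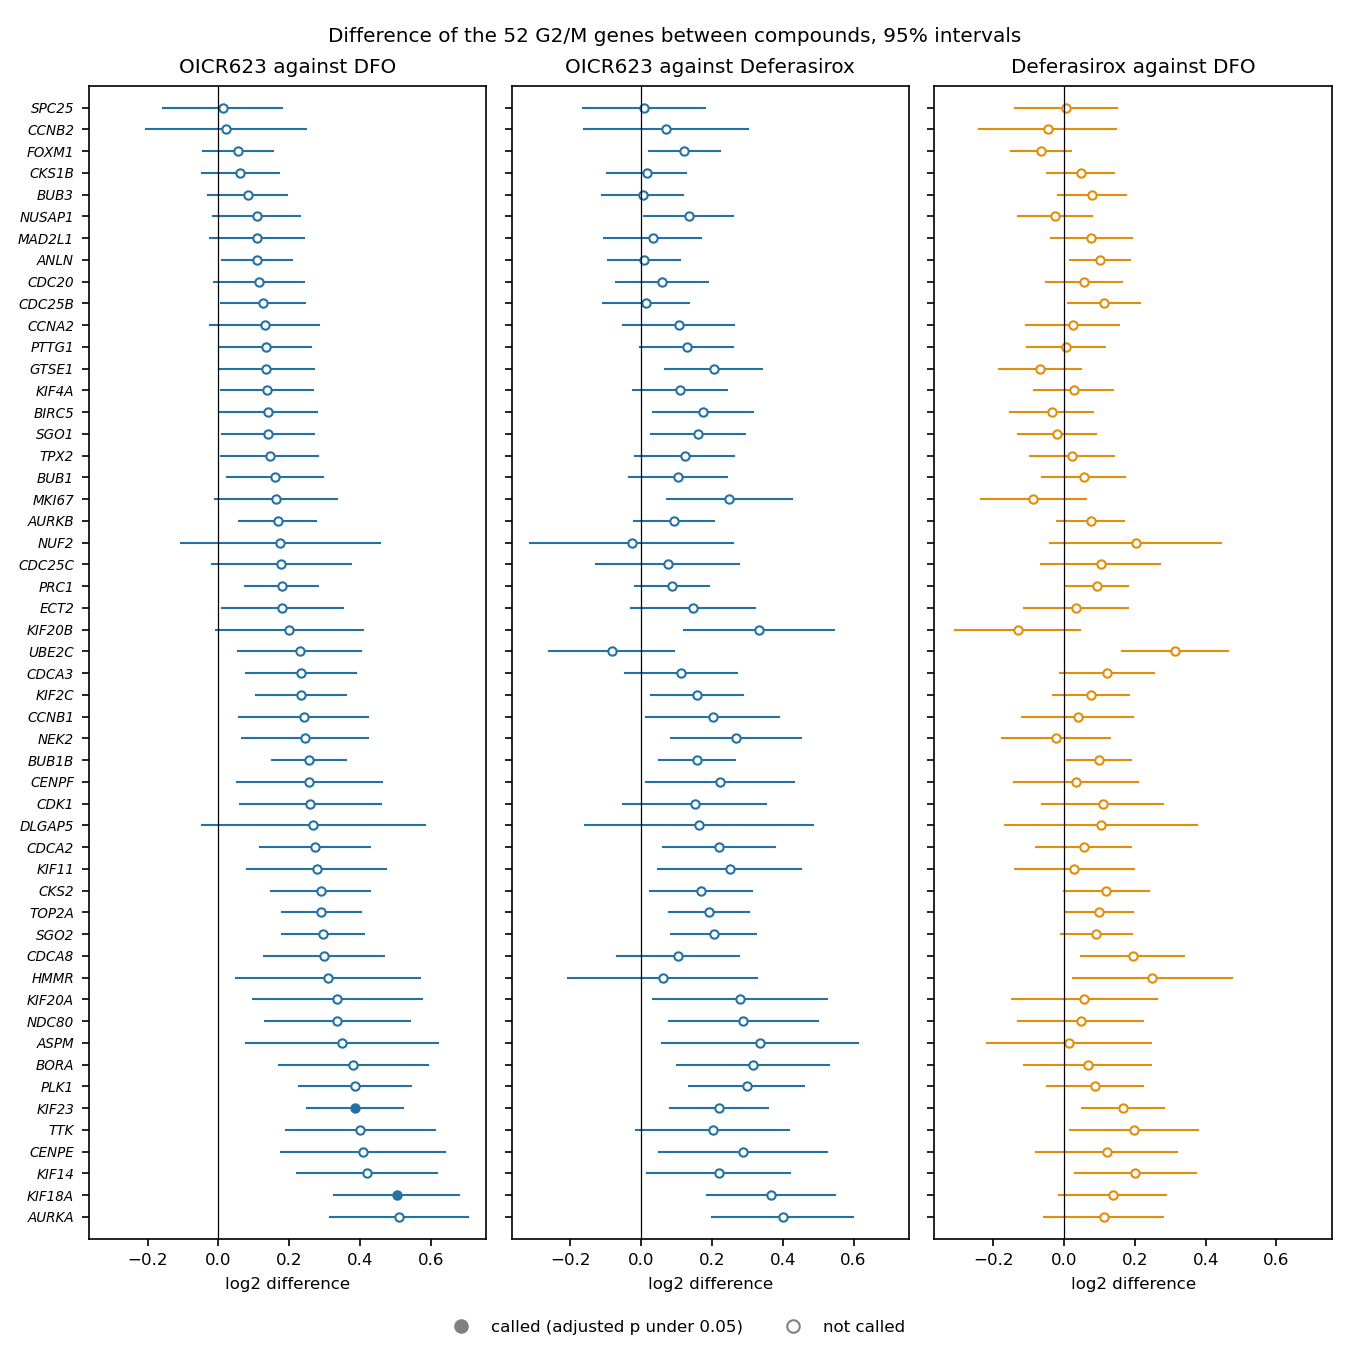
Log2 difference of each of the 52 genes between compounds (x axis), fitted with levels as blocks, ordered by the OICR623 and DFO difference, with 95% intervals; filled points are called genes. All 52 points lie above 0 for OICR623 against DFO, with KIF18A and KIF23 filled, and doses differed in every panel.

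Other genes of the pathway were counted from lists, to be read against the shares of all 18404 genes called: 2.72 percent lower and 1.89 percent higher under DFO, 3 and 2.83 percent under Deferasirox, and 0.397 and 0.337 percent under OICR623. Of 59 further mitosis genes, 24 fell and 1 rose under DFO, 21 fell and 0 rose under Deferasirox, and 3 fell and 0 rose under OICR623, with medians of -0.17, -0.10 and -0.08. The largest falls under DFO were those of DEPDC1 with -0.73 (SE 0.12), TROAP with -0.68 (SE 0.07), CKAP2L with -0.67 (SE 0.05) and FAM83D with -0.59 (SE 0.04). The 1 that rose was MASTL, whose kinase restrains the phosphatase that opposes CDK1, with 0.26 (SE 0.05). Under Deferasirox DEPDC1 changed by -0.73 (SE 0.13), ARHGAP11A by -0.58 (SE 0.06) and PSRC1 by -0.56 (SE 0.05). The 3 that fell under OICR623 were PSRC1 with -0.32 (SE 0.06), TACC3 with -0.27 (SE 0.05) and FAM83D with -0.26 (SE 0.05).

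Of 15 genes that restrain or time mitotic entry, 2 rose and 1 fell under DFO, 3 rose and 1 fell under Deferasirox, and 0 were called under OICR623. All genes had 1.89 percent higher and 2.72 percent lower under DFO, and 2.83 and 3 percent under Deferasirox. CDKN1A, the CDK inhibitor p21, rose by 0.39 (SE 0.05) under DFO and by 0.48 (SE 0.06) under Deferasirox. CDC25A, a phosphatase that activates CDKs from G1/S onward, rose by 0.23 (SE 0.04) and 0.22 (SE 0.05), and GADD45A changed by -0.23 (SE 0.05) and -0.24 (SE 0.06). SFN (14-3-3 sigma), which keeps CDK1 in the cytoplasm, rose by 0.22 (SE 0.06) under Deferasirox. Of 16 anaphase promoting complex genes, 2 fell under DFO, FZR1, which encodes the activator CDH1, with -0.33 (SE 0.05) and ANAPC13 with -0.31 (SE 0.05). Under Deferasirox ANAPC13 alone was called, with -0.29 (SE 0.06), and under OICR623 0 of 16.

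Of 21 genes for the DREAM and B-MYB complexes, E2F factors and NF-Y, 5 rose and 2 fell under DFO and under Deferasirox, and 1 fell under OICR623. E2F7, an E2F repressor, rose by 0.64 (SE 0.07) under DFO and 0.55 (SE 0.08) under Deferasirox. E2F2, E2F1 and LIN54, the DREAM subunit that binds the CHR, rose by 0.42 (SE 0.05), 0.30 (SE 0.05) and 0.32 (SE 0.06) under DFO. MYBL2, the gene of B-MYB, was the fifth that rose, by 0.30 (SE 0.04) under DFO and 0.24 (SE 0.04) under Deferasirox, and is named after its values were seen. NFYA, the DNA-binding subunit of NF-Y, changed by -0.32 (SE 0.04), -0.21 (SE 0.04) and -0.29 (SE 0.05) under DFO, Deferasirox and OICR623, and was called in all 3 comparisons. The other gene that fell was E2F5 under DFO, with -0.31 (SE 0.06), and E2F4 under Deferasirox, with -0.17 (SE 0.04). The remaining genes of this list, most of the DREAM subunits among them, were called under no compound. Of the genes of the preceding phase, 8 of 29 G1/S and replication genes rose and 0 fell under DFO, 7 rose and 0 fell under Deferasirox, and 1 rose under OICR623, with medians of 0.15, 0.10 and 0.05. The shares of all genes called higher were 1.89, 2.83 and 0.337 percent. CCNE2, a cyclin E gene, changed by 0.98 (SE 0.05), 1.00 (SE 0.05) and 0.63 (SE 0.06) under the 3 compounds, and CCNE1 by 0.75 (SE 0.06) and 0.85 (SE 0.07) under DFO and Deferasirox.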

How the data were processed

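RNA of 13 SW480 cultures was hybridised to Affymetrix Human Gene 1.0 ST arrays. The deposited value table holds log2 signals, and the submitters' processing notes name GCRMA and limma with neither version nor order; how arrays were normalized to each other is not given in the sources used here. Array values carry no counts, so the number of arrays limits the precision. Each p-value sets a group difference against the spread between arrays that groups and levels leave. That spread was pooled over all groups and moderated across genes, so for OICR623 it rests on arrays of the other groups too.

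Of 32321 transcript clusters, 19158 have 1 gene symbol in the platform annotation, 1388 several and 11775 none; only those with 1 symbol were used, which gave 18404 genes, each at its brightest row. The fit was limma 3.58.1 in R 4.3.3 (lmFit and eBayes) on all 13 arrays, with a mean per group and the 3-level array block, split where neighbouring array medians lay over 0.05 apart. Benjamini-Hochberg adjustment ran over all genes in each of 6 comparisons, at a threshold of 0.05. Alternatives were other blocks, scalings, filters and left-out arrays.

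The deviations of same-numbered DFO and DMSO arrays correlated at 0.945, 0.662, 0.738 and 0.788 before the level was removed, and at -1, 0.0813, 0.125 and -0.533 after it. The -1 is fixed by the fit, because DFO 1 and DMSO 1 are alone in the high level and their deviations become exact opposites. The -0.533 is pulled down in the same way, as the low level holds only DFO 4, DMSO 4 and Deferasirox 3. The labels state no pairing, and among DFO and DMSO arrays number 1 alone is high and number 4 alone is low, so these correlations do not separate a shared number from a shared level. Deferasirox and OICR623 carry the numbers at other levels, which lets number and level enter 1 fit. Values with the number as a block are given beside the main ones.

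The mitotic genes and all lists were chosen with earlier results of these data known. Any of the mitotic genes may be named. Per-array values are given for 19 of them set by name, plus the 5 lowest and 3 highest under each compound. Between compounds the 3 lowest and 3 highest are named, and from the other lists up to 4 called genes per direction.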

Additional observations from a re-analysis of the deposited data

Results flagged for a closer look

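In 22 of 106 groups of 4 arrays tested (DFO and DMSO, each mitotic gene and the mean over them), the highest array stood apart from the other 3 by more than Dixon's 95% critical value for 4 samples allows. Chance flags about 1 in 20 independent groups. That rate cannot be set against this count, as the genes share the same arrays and the values were not adjusted for the level. In each case the array was DFO 1 or DMSO 1, the 2 arrays of the high level. DFO 1 stood apart for AURKB (log2 signal 11.34), BUB3 (11.79), KIF18A (9.66), BIRC5 (9.82), NUSAP1 (11.59) and ECT2 (11.01). DMSO 1 stood apart for AURKA (12.06), AURKB (11.64), TTK (10.78), CDC25C (9.02), KIF11 (11.15), KIF23 (11.63), KIF2C (10.61), KIF14 (9.96), KIF18A (10.37), NUSAP1 (11.68), ECT2 (11.13), HMMR (9.98), PTTG1 (10.07), CDCA3 (10.16), CDCA8 (10.93) and BORA (9.43). Without both arrays of the high level 33 of the 52 genes were called lower under DFO, 32 under Deferasirox and 1 under OICR623.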

How the results depend on the processing

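All 38 genes called under DFO, 36 under Deferasirox and 2 under OICR623 kept their sign in the 27 alternatives, of which 2 (without the high or the low level) were chosen after seeing the data. For DFO, dropping the block or using the replicate number could not change the difference to DMSO. Nor could fitting only the groups compared or leaving out a Deferasirox or OICR623 array. Trend and robust moderation and the filter on dim genes could change no difference of any compound, only calls. The fits without DFO 1, without DMSO 1 and without the high level were the same fit. The counts of lower calls under DFO, Deferasirox and OICR623 were 21, 11 and 0 with the array median as covariate, 5, 4 and 0 with centred arrays and no block, 11, 9 and 0 with quantile normalization and no block, 14, 8 and 0 on the middle level, and 24, 12 and 0 without the low level. They were 34, 24 and 0 on the 2 groups compared, 43, 38 and 9 with trend and robust moderation (1 higher under OICR623), where the lower calls over all genes were 727, 790 and 185 against 500, 553 and 73 as reported, 39, 36 and 0 with array weights, 41, 38 and 7 without the dimmest 30 percent (665, 729 and 121 over all genes), and 33, 32 and 1 without the high level. The UBE2C call under Deferasirox left 0 higher calls with no block, either replicate block, centring, quantile normalization, the middle level alone or no low level. OICR623 was called above DFO for 9 genes with trend and robust moderation, 7 without the dimmest 30 percent, 1 on the middle level and 0 with no block, either replicate block, the covariate, centring, quantile normalization, the 2 groups alone or array weights. With trend and robust moderation 1 gene was called for Deferasirox against DFO and 4 for OICR623 against Deferasirox.

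The replicate number in place of the level left 0, 9 and 0 lower calls under DFO, Deferasirox and OICR623, as against 41, 17 and 0 with the replicate block together with the level, and turned KIF23 (-0.15) and KIF18A (-0.034) for OICR623 against DFO. With the replicate block in place of the level the medians were -0.64 for Deferasirox and -0.56 for OICR623 against DMSO, -0.30 for Deferasirox and -0.22 for OICR623 against DFO, and 0.092 for OICR623 against Deferasirox. With number and level they were -0.38 and -0.22 for Deferasirox and OICR623 against DMSO and 0.12 for OICR623 against DFO. With no block they were -0.52 and -0.29 against DMSO, -0.17 and 0.062 against DFO and 0.23 for OICR623 against Deferasirox, and no gene was called lower (0) under any compound. With no block the all-gene median shifted by -0.15 under Deferasirox and -0.11 under OICR623. Since those groups lack arrays of 1 or 2 levels, such medians mix level and compound. Centring gave -0.36 and -0.19 for Deferasirox and OICR623 against DMSO and -0.025 and 0.14 against DFO. Quantile normalization gave -0.34 for Deferasirox against DMSO and 0.0078 and 0.17 against DFO. The covariate gave -0.29 for DFO and -0.23 for Deferasirox, and for Deferasirox the middle level alone and the fit without the low level each gave -0.23.

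Leaving out 1 array gave 31 to 37 lower calls under DFO, 20 to 34 under Deferasirox and 0 to 2 under OICR623, and 0 to 2 higher for OICR623 against DFO. The medians then ran from -0.37 to -0.30 under DFO, -0.31 to -0.24 under Deferasirox, -0.19 to -0.084 under OICR623 and 0.15 to 0.26 for OICR623 against DFO. OICR623 rests on 2 arrays of 1 level. The cause of these changes was not tested.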

Other observations

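Within each of DFO, Deferasirox and DMSO, the low-level array lay below the middle-level arrays for the mean of the mitotic genes, but above them for MKI67. MKI67 read 10.87 in DFO 4, where DFO 2 and 3 read 10.70 and 10.51, and 10.73 in Deferasirox 3, where Deferasirox 1 and 2 read 10.64 and 10.50. The DMSO arrays had the same order, with 11.04 in DMSO 4, where DMSO 2 and 3 read 10.93 and 10.89.

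By role, the median differences under DFO, Deferasirox and OICR623 were -0.53, -0.44 and -0.22 for the Polo, Aurora and NEK2 kinases and partners, and -0.48, -0.43 and -0.16 for the kinesins. They were -0.18, -0.15 and -0.05 for the spindle checkpoint and anaphase genes. The third transcript cluster of CKS1B (7926896), with a mean signal of 5.48, had differences of -0.36, 0.25 and -0.14.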
